A study of Mus musculus with 12 samples.

Results

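Choroid plexus epithelial nuclei were examined in the left hippocampus of female mice, where 1080 of 184957 nuclei with 500 to 10000 detected genes (0.584%) met a rule on unique molecular identifiers (UMIs, one per captured transcript). The rule asked for at least 10 UMIs of Ttr and 2 of Htr2c, at least 1 UMI of Kl, Folr1, Otx2 or Clic6, at most 1 UMI over the transmitter genes Slc17a7, Slc17a6, Gad1 and Gad2, and none of Mog. These values chose the nuclei and are not findings. The nuclei came from 3xTg-AD mice and their WT littermates at 6 and 12 months, with 3 mice and 3 libraries per genotype and age. The 3xTg-AD line (B6;129 background) carries human transgenes for APP with the Swedish mutation and for tau with P301L, driven by a Thy1 cassette that is active in neurons. WT littermates carried neither. Mice were perfused before the hippocampi were frozen, and nuclei were sorted and put through snRNA-seq in droplets, where the 3′ ends of transcripts in each nucleus are counted.

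The choroid plexus is a fold of vascular tissue inside the brain ventricles, covered by 1 layer of epithelium that lies against the hippocampal fimbria in the lateral ventricle. Its epithelium secretes most of the cerebrospinal fluid by moving sodium, chloride, bicarbonate and water from blood to ventricle, and its tight junctions form the barrier between blood and cerebrospinal fluid. It also makes transthyretin (Ttr), the main carrier of thyroid hormone and of retinol-binding protein in that fluid, and carries a serotonin receptor (Htr2c). It belongs to the same ventricular lining as the ependyma, but ependymal cells bear long motile cilia and make no Ttr.

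The 12 libraries held 79177051 to 128323908 UMIs and 11352 to 19811 retained nuclei. Epithelial nuclei had a median of 4703 UMIs (620 to 24610) and 2482.5 genes, and library medians for all nuclei were 4345 to 6698.5 UMIs. Members held a median of 36 UMIs of Ttr (10 to 199) and 72 of Htr2c (4 to 532). Of the epithelial genes in the rule, Clic6 was found in 91.8%, Otx2 in 90.3%, Kl in 87.0% and Folr1 in 57.7% of members. All 4 were held by 478 nuclei. Every member had to hold a UMI from this set, so these shares describe the choice and are not separate evidence of identity. At the edge of the rule, 29 members had 10 to 12 UMIs of Ttr and a median of 44 of Htr2c, and 17 nuclei with 7 to 9 UMIs of Ttr that passed the other conditions had a median of 42 of Htr2c. A further 129 nuclei passed on Ttr, Htr2c and the epithelial genes but were left out for transmitter UMIs or Mog. They had a median of 10902 UMIs, and Scrublet, which scores nuclei against simulated pairs, marked 81.4% of them as doublets. It marked 87 members (8.06%) and 6.79% of all nuclei. No cell barcode was shared between members of different libraries.

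The 20 genes highest in the epithelium over all other nuclei were of mixed function, led by the gene model 2900040C04Rik (105 CPM against 0.145 in other nuclei). The account that follows is a description with no test, since these nuclei were picked by genes that go with the others. Levels are CPM, the counts of a gene scaled to a common total over the pooled members of a library, given as mean ± SD over the 8 libraries that held at least 10 members. Claudin 2 (Cldn2), which forms pores for cations and water in tight junctions, was at 133 ± 17.0 CPM (SD, n = 8) in members and at 0.191 CPM in other nuclei. The potassium channel subunit Kcne2 was at 121 ± 39.5 CPM against 0.269, the bicarbonate transporter Slc4a5 at 414 ± 49.7 against 1.17, and the calcium-permeable channel Trpv4 at 294 ± 71.1 against 1.07 (SD, n = 8). The membrane protein Tmem72 was at 932 ± 103 CPM (SD, n = 8), with 796 in the lowest and 1091 in the highest library, and at 1.38 CPM in other nuclei. The lactate transporter Slc16a8 was at 142 ± 39.1 CPM against 0.217, and coagulation factor 5 (F5) at 281 ± 50.3 against 0.925 (SD, n = 8). Gmnc, a coiled-coil regulator that turns on the programme for many cilia, reached 1294 ± 489 CPM (SD, n = 8), 2.60 in other nuclei and 82.0 in ependymal nuclei. The rest of the 20 leading genes included the homeobox gene Msx1 (170 CPM against 0.733), the RNA-binding protein gene Rbm47 (1328 against 5.31), the dynein regulator Drc7 (477 against 1.78) and the protease gene Fap (591 against 2.59). Their spread between libraries differed, for example 107 to 157 CPM for Cldn2 and 64.5 to 384 CPM for Tc2n.

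**Figure D1:**
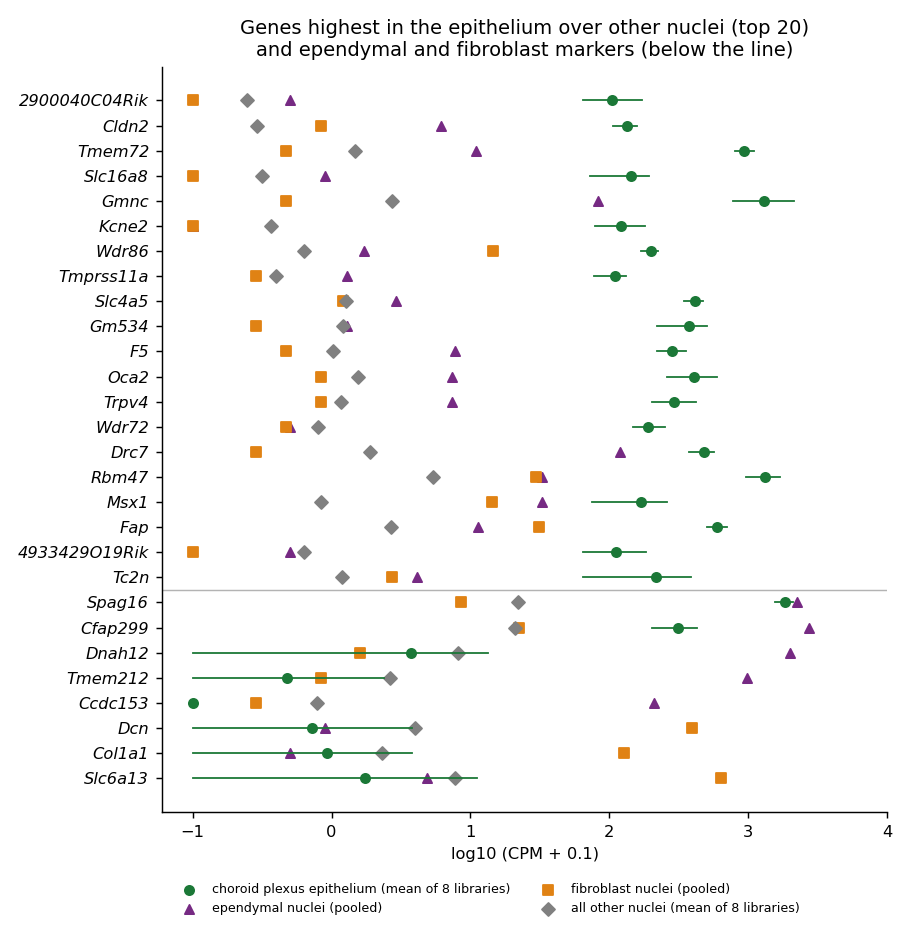
Level (log10 of CPM + 0.1, horizontal axis) of the 20 genes with the largest ratio of epithelium to other nuclei among those at 100 CPM or more and outside the rule, and of ependymal and fibroblast markers below the line. Green points are means over 8 libraries with a line from the lowest to the highest, and triangles, squares and diamonds are ependymal, fibroblast and other nuclei; Cldn2 sat at 133 CPM in the epithelium and at 0.191 in other nuclei.

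Markers of the neighbouring cells were read in the same nuclei. Those of ependyma and fibroblasts were mixed, with some at or near 0 and others above their level in other nuclei (3 of 6 ependymal and 1 of 6 fibroblast markers). For comparison, 659 ependymal nuclei and 1263 fibroblast nuclei were picked by their own markers and pooled. High levels of those markers in the nuclei so picked follow from that choice. Of 6 ependymal markers, Ccdc153 had no UMI in members, Tmem212 was at 0.375 CPM and the ciliary dynein Dnah12 at 3.64 CPM, whereas ependymal nuclei were at 208, 983 and 1985 CPM. Spag16 (1824 ± 217 CPM, SD, n = 8) and Cfap299 (314 ± 74.4 CPM, SD, n = 8), which build the axoneme, were high in the epithelium as well, at 2248 and 2738 CPM in ependymal nuclei. The summed level of the 6 ependymal markers averaged 2172 CPM in members against 57.2 CPM in other nuclei (3799%), and most of it was Spag16. The fibroblast matrix genes Col3a1, a collagen, and Lum, a proteoglycan, were at 0. The summed level of 6 fibroblast markers was 9.70 to 62.5 CPM in members and 15.6 to 29.0 CPM in other nuclei (123% of the mean there). Summed neuronal markers were at 1392 to 4993 CPM in members, 14.2% of their mean level in other nuclei. Summed astrocyte and oligodendrocyte markers were at 12.5% and 11.6%. The rule capped the UMIs of transmitter genes and left out nuclei with Mog. Low sums of neuronal and oligodendrocyte markers thus follow in part from that choice and are not separate evidence of identity. Other sets were less low, with endothelial markers at 59.1%, striatal neuron markers at 41.9% and dentate granule neuron markers at 31.0%. Pericyte and smooth muscle markers were at 25.9% and oligodendrocyte precursor markers at 19.3%. The summed macrophage and microglia markers were above other nuclei, at 64.5 to 192 CPM in members and 28.9 to 53.7 CPM elsewhere (309%). Most of that sum was the chemokine receptor gene Cx3cr1 (108 CPM against 7.99), while P2ry12 was at 7.79 against 25.2 CPM and Cd163 and Pf4 were at 0. The counts precede the removal of free RNA, whose part in these levels was not tested.

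Genes of position along the neural tube were low in members. Of 9 Hox genes, which mark hindbrain territory, 8 had no UMI in any member, and Hoxa2 averaged 0.0814 CPM over 8 libraries. In other nuclei all 9 were low as well, at 0.0118 to 0.243 CPM. Of 5 forebrain genes, 3 were above their level in other nuclei. Otx1, a homeobox gene of the forebrain and midbrain, was at 18.8 ± 10.6 CPM (SD, n = 8) in members and 1.42 in other nuclei, and Emx1 was at 6.43 ± 4.21 CPM (SD, n = 8) against 0.756. Emx2 was at 3.09 against 2.31 CPM, and Lhx2, at 0.593 against 10.7 CPM, was below other nuclei. A Hox count of 0 holds only for transcripts that the 3′ assay catches in nuclei.

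Lists of genes by function were read in the same way. Of 30 genes for ion and water transport, 21 were above their level in other nuclei, 12 of them over 10 times, and 15 were at 100 CPM or more. As background, 6301 of the 9315 genes tested between genotypes further below were above their level in other nuclei. Those 9315 genes had passed a filter on counts in members, whereas the list counts also hold genes too low to be tested (24 of the 30 were tested). The list counts are therefore a description and cannot be set against that share. No background was taken for the counts over 10 times. Slc4a10, a sodium-driven bicarbonate transporter, was at 4042 ± 520 CPM (SD, n = 8) against 382, and Slc12a2, the sodium-potassium-chloride cotransporter NKCC1, at 944 ± 217 against 118. Its activating kinase gene Stk39 was at 3617 ± 769 CPM (SD, n = 8) against 204. The carbonic anhydrase Car12 was at 538 ± 106 CPM (SD, n = 8) against 13.1, and the water channel Aqp1 at 20.4 ± 5.22 against 0.249. Nuclear 3′ counts of one gene are compared with the same gene elsewhere and not with other genes here.

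Of 16 genes of thyroid hormone and retinoid handling, 7 were above their level in other nuclei and 2 over 10 times that level, and of 18 receptor genes these were 11 and 2. Only 9 of the 16 and 12 of the 18 passed the filter on counts in members, as did 7 of the 23 inflammation and stress genes below. The 6301 of 9315 genes that passed it are thus no like background for the counts in this paragraph. The thyroid hormone transporter gene Slco1c1 was at 660 ± 355 CPM (SD, n = 8) against 20.8 CPM in other nuclei, and the thyroid receptor gene Thrb was at 427 ± 129 CPM against 288. The deiodinase gene Dio3 and the retinol carrier gene Rbp4 had no UMI in members. The prolactin receptor gene Prlr was at 1361 ± 468 CPM (SD, n = 8) against 48.1, the leptin receptor gene Lepr at 159 ± 35.3 against 10.9, and Igf1r at 620 ± 43.0 against 272. Among secreted factors, Enpp2, which encodes the lysophosphatidic acid enzyme autotaxin, was at 10031 ± 1806 CPM (SD, n = 8) against 147, and the collagen gene Col9a3 at 1220 ± 248.7 against 15.7. Of 23 inflammation and stress genes found in the files, 7 had no UMI in members, among them Tnf, Il6, Ccl2 and Lcn2, and 9 were above other nuclei, 2 of them over 10 times. The adhesion molecule gene Vcam1 was at 145 ± 33.5 CPM (SD, n = 8) against 4.98.

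The homeodomain factor Otx2 is required for this epithelium, and its recognition core TAATCC was searched on both strands of RefSeq promoter windows (GRCm38.p6, 250 bases before to 50 after a start site). Of the 20 leading genes 16 matched, with 21 windows, and 1 window (4.76%) held the core, against 7.06% of 32817 windows of the same length. The stretch of Rbm47 that holds it, at chr5:66152145-66152204 on the minus strand and upstream of an annotated start, is shown with the core in capitals, read as its reverse complement.

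Rbm47: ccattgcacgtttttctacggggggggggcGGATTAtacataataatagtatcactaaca

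This is a match of letters and not a binding site.

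The amount of epithelium differed widely from mouse to mouse within every group. At 6 months, the WT libraries held 2 (replicate 3, 0.0165% of retained nuclei), 292 (replicate 7, 1.83%) and 96 (replicate 11, 0.608%) epithelial nuclei. The 6-month 3xTg-AD libraries held 28 (replicate 1, 0.198%), 53 (replicate 5, 0.335%) and 274 (replicate 9, 1.53%). At 12 months, the WT libraries held 97 (replicate 4, 0.538%), 1 (replicate 8, 0.00756%) and 108 (replicate 12, 0.951%), and the 3xTg-AD libraries held 4 (replicate 2, 0.0266%), 121 (replicate 6, 0.770%) and 4 (replicate 10, 0.0202%). Both genotypes had libraries near 0 and libraries near 1% or above, so that the groups overlapped at each age. The highest share was 242 times the lowest, while the exact 95% binomial interval of the highest was 1.63% to 2.05% and that of the lowest 0.000191% to 0.0421%; these intervals cover counting error only. Replicates 7, 9 and 6 together held 63.6% of all epithelial nuclei.

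**Figure D2:**
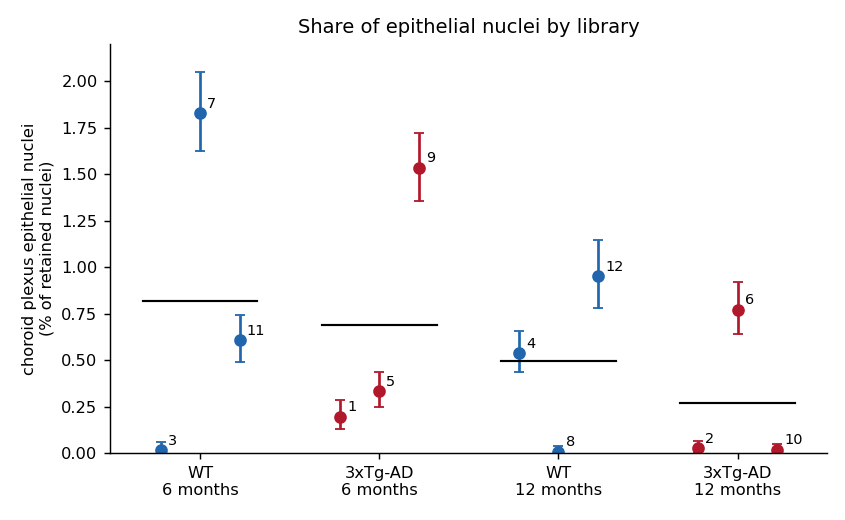
Epithelial nuclei as a percent of retained nuclei (vertical axis) in each of 12 libraries, by genotype and age. Points carry the replicate number with the exact 95% binomial interval, black lines are group means, and libraries range from 0.00756% to 1.83%, with the 4 groups overlapping.

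No genotype or age difference in this share passed a test. The mean share was 0.689% ± 0.735 (SD, n = 3) in 3xTg-AD and 0.817% ± 0.923 (n = 3) in WT at 6 months (two-sided exact permutation p = 0.80). At 12 months it was 0.272% ± 0.431 (SD, n = 3) and 0.499% ± 0.473 (n = 3, exact permutation p = 0.70). With 3 libraries against 3, the smallest p possible is 0.10. Over both ages, the means were 0.480% ± 0.585 in 3xTg-AD and 0.658% ± 0.679 in WT (SD, n = 6 each, exact permutation p = 0.62), and they were 0.753% ± 0.750 at 6 months and 0.386% ± 0.423 at 12 months (n = 6 each, exact permutation p = 0.32). The change of the genotype difference with age was -0.0979 percentage points (exact permutation p = 0.89). Adjusted over the 5 comparisons, every p was 0.89. Each difference between groups was smaller than the SDs of the groups compared.

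Ttr, which the rule used, was also read outside the epithelium, as a description with no test. In nuclei with at least 5 UMIs of transmitter genes, which are neurons, Ttr was at 38.1 CPM in 6-month 3xTg-AD replicate 9 and at 29.6 CPM in 6-month WT replicate 7, the libraries richest in epithelium. It was at 0.494 to 1.48 CPM in the 4 libraries with 1 to 4 epithelial nuclei and at 3.52 to 13.6 CPM in the other 6. Over 12 libraries, Pearson's r of the share with this level was 0.94 and Spearman's rho 0.93. These quantities are tied, since both rest on Ttr and nuclei with many Ttr UMIs that the rule left out for transmitter UMIs can fall among the neurons. Of the neurons, 26.7% held a Ttr UMI in replicate 9 and 15.96% in replicate 7, against 0.637% to 1.63% in the 4 libraries with the fewest epithelial nuclei. Without replicates 7 and 9, the libraries farthest from the median share, r was 0.94. It was 0.95 among the 6 libraries at 6 months and 0.95 among the 6 at 12 months. The source of the neuronal Ttr was not tested.

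**Figure D3:**
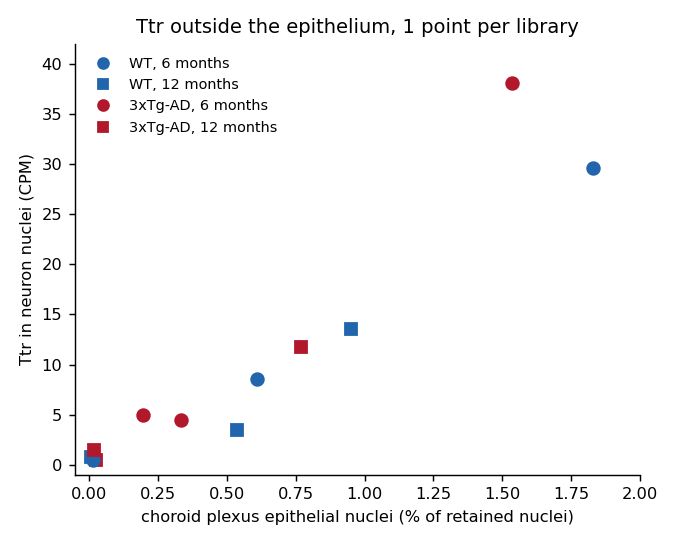
Ttr in neuron nuclei (CPM, vertical axis) against the share of epithelial nuclei (percent of retained nuclei, horizontal axis), 1 point per library, with colour for genotype and shape for age. The points rise from 0.494 to 38.1 CPM, and both genotypes lie along the same band.

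The share of epithelium was also set against the shares of its neighbours. Pearson's r with the share of ependymal nuclei was 0.22 (permutation p = 0.49, rho = 0.28, permutation p = 0.38, n = 12, adjusted over 3 relations 0.73 and 0.57) and 0.13 without replicates 7 and 9. Within ages it was -0.28 at 6 months and 0.57 at 12 months (n = 6 each). With the share of fibroblast nuclei it was -0.0039 (permutation p = 0.99, rho = -0.028, permutation p = 0.94, n = 12, adjusted 0.99 and 0.94) and 0.30 without them. The fibroblast relation had opposite signs within ages, with r = -0.87 at 6 months and 0.75 at 12 months (n = 6 each), given as a description. A library such as 6-month WT replicate 3 held 83 ependymal and 136 fibroblast nuclei but 2 epithelial nuclei.

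Gene expression was compared between genotypes on UMIs summed over the epithelial nuclei of a library, in the 8 libraries with at least 10 members (1069 nuclei). These were 3 3xTg-AD and 2 WT libraries at 6 months and 1 3xTg-AD and 2 WT libraries at 12 months. Mouse counterparts of the transgenes were read first. Mouse App was at 702 to 920 CPM in the 3xTg-AD and at 810 to 1270 CPM in the WT epithelium (log2 fold change -0.28 ± 0.15 SE, adjusted p = 0.85), and Mapt at 25.9 to 72.8 and 32.3 to 76.2 CPM (adjusted p = 0.96). Thy1, whose promoter drives the transgenes, was at 9.70 to 26.5 and 6.91 to 14.1 CPM and was too low to be tested. The reads were aligned to the mouse genome, so these counts do not check the human transgenes.

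Over both ages, with age as a covariate, 16 of 9315 genes tested differed between the genotypes (0.172%), 3 higher (0.0322%) and 13 lower (0.14%) in 3xTg-AD. Calls needed an edgeR quasi-likelihood adjusted p under 0.05 together with an absolute log2 fold change over 0.2. In all 16 the 4 3xTg-AD libraries lay wholly on one side of the 4 WT libraries, which held for 4.27% of the genes tested. A p under 0.05 before adjustment was reached by 591 genes. These calls rest on 6-month 3xTg-AD replicate 9, the largest 3xTg-AD library: without it none was called, although all 16 kept their sign. Without 12-month 3xTg-AD replicate 6 the count was 3, without 6-month 3xTg-AD replicate 5 it was 6, and without 6-month WT replicate 7 or 11 it was 7.

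**Figure D4:**
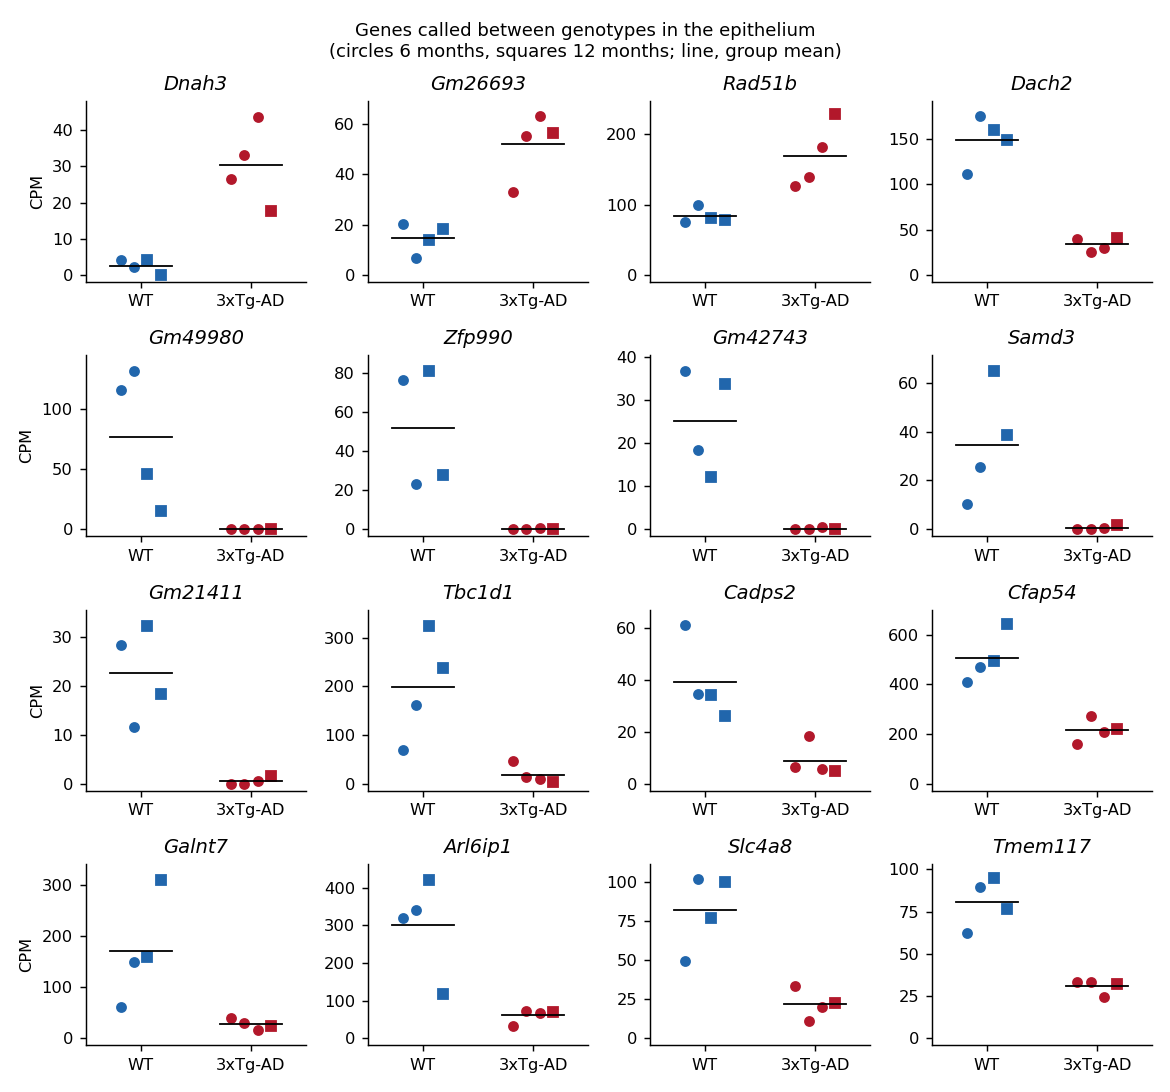
CPM in the epithelium of 4 WT (blue) and 4 3xTg-AD (red) libraries for the 16 genes called between genotypes, on a linear axis from 0 for each gene. Circles are 6-month and squares 12-month libraries, lines are group means, and in every panel the genotypes do not overlap.

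Dach2, a transcriptional cofactor gene of the dachshund family on the X chromosome (chrX:113297510-113836386), had the smallest adjusted p. It was at 112 and 175 CPM in the 6-month WT and at 159 and 149 CPM in the 12-month WT epithelium. The 3xTg-AD libraries were at 39.7, 25.7 and 29.9 CPM at 6 months and 40.4 CPM at 12 months. The level was 4.38 times higher in WT, with a log2 fold change of -2.09 ± 0.22 (SE, edgeR adjusted p = 0.0037), and 3xTg-AD and WT means of 34.0 ± 7.27 and 149 ± 27.0 CPM (SD, n = 4 each). With the 6-month libraries by themselves the log2 fold change was -2.17 ± 0.29 (SE, edgeR adjusted p = 0.019), a call that was lost without any one of the 3 3xTg-AD libraries. In the other nuclei of the same libraries, Dach2 was at 23.7 and 25.8 CPM (log2 fold change -0.021, edgeR adjusted p = 0.97).

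Tbc1d1, which encodes a Rab GTPase-activating protein of glucose transporter traffic, was at 69.3 and 161 CPM in 6-month WT and at 325 and 238 CPM in 12-month WT epithelium. The 3xTg-AD values were 46.4, 14.7 and 9.11 CPM at 6 months and 3.23 CPM at 12 months, each below the lowest WT library (log2 fold change -3.77 ± 0.57 SE, edgeR adjusted p = 0.024). Galnt7, a glycosyltransferase gene of mucin-type sugar chains, was at 61.0, 150, 159 and 310 CPM in WT and at 39.7, 29.4, 16.3 and 24.3 CPM in 3xTg-AD (log2 fold change -2.57 ± 0.41 SE, edgeR adjusted p = 0.026). Neither gene was called in the other nuclei, where Tbc1d1 was at 63.8 CPM in 3xTg-AD and 68.7 in WT and Galnt7 at 108 and 101 CPM.

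Arl6ip1, whose product shapes the tubules of the endoplasmic reticulum, was at 320 and 341 CPM in 6-month WT, at 422 and 118 CPM in 12-month WT, and at 33.1 to 73.6 CPM in 3xTg-AD (log2 fold change -2.24 ± 0.37 SE, edgeR adjusted p = 0.032). The bicarbonate exchanger gene Slc4a8 was at 49.2 to 101 CPM in WT and at 11.03 to 33.1 CPM in 3xTg-AD (log2 fold change -1.86 ± 0.31 SE, edgeR adjusted p = 0.032). Tmem117 was at 62.4 to 94.8 and 24.7 to 33.1 CPM (log2 fold change -1.40 ± 0.24 SE, edgeR adjusted p = 0.034). Cadps2, a factor that primes dense-core vesicles, was at 26.1 to 61.0 CPM in WT and 4.85 to 18.4 CPM in 3xTg-AD (log2 fold change -2.60 ± 0.40 SE, edgeR adjusted p = 0.024). It was at 182 CPM in other nuclei, above its level in the epithelium. Over both ages the 6 neuronal markers had negative log2 fold changes (median -0.30 beside -0.01 over all genes tested), and none was called. The part of neuronal transcripts in the values of Tmem117, Cadps2 and Slc4a8 was not tested. In the comparison over both ages, Arl6ip1, Slc4a8 and Tmem117 fell outside the rule for named genes and were chosen after their values were seen; Arl6ip1 met the rule at 6 months.

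A set of the lower genes was nearly silent in 3xTg-AD. The long noncoding RNA Gm49980 had no UMI in the 4 3xTg-AD libraries (2577416 UMIs in all) and 257 UMIs in the WT libraries (3023684 UMIs), at 15.4 to 131 CPM. Its mean WT level was 66.3 times the level that 3 counts over the 3xTg-AD group would give (edgeR adjusted p = 0.0042 for the genotype difference). The exact 95% lower limit of the ratio of pooled counts was 59.0. Zfp990, a zinc finger gene, had 1 UMI in 3xTg-AD and 178 in WT, a ratio per UMI of 152 with an exact 95% interval of 26.9 to 6026. The noncoding Gm42743 had 1 and 89 UMIs (ratio 75.9, 13.3 to 3030), Samd3 2 and 83 (ratio 35.4, 9.49 to 297), and the gene model Gm21411 2 and 74 (ratio 31.5, 8.43 to 265). These intervals cover counting error only.

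For most of these nearly silent genes the difference was not particular to the epithelium. Gm49980, Zfp990, Gm42743 and Gm21411 were also lower in the other nuclei of the same 3xTg-AD libraries, by log2 fold changes of -6.48, -6.01, -4.58 and -3.99 (edgeR adjusted p = 5.8e-05, 0.0014, 0.00013 and 0.0049). Samd3 was not, at 2.75 CPM in 3xTg-AD and 3.54 in WT (edgeR adjusted p = 0.69). Zfp990 and Gm21411 lie 1.35 Mb apart on chromosome 4 (chr4:145510759-145539188 and chr4:146892406-146909590 on GRCm38), in a region of closely related zinc finger genes, where reads may be split between copies.

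Of the motile cilia list, 1 gene was called between genotypes. Cfap54, which encodes a protein of the central apparatus of the motile axoneme, was at 409, 470, 496 and 643 CPM in WT and at 159, 272, 209 and 220 CPM in 3xTg-AD (log2 fold change -1.14 ± 0.18 SE, edgeR adjusted p = 0.024). It was lower in the other nuclei as well, at 38.6 against 105 CPM (log2 fold change -1.36, edgeR adjusted p = 3.5e-05). The axonemal dynein gene Dnah3, which was not on that list, was higher in 3xTg-AD, at 26.5, 33.1, 43.6 and 17.8 CPM in 3xTg-AD and at 4.16, 2.30, 4.03 and 0 CPM in WT (91 against 9 UMIs, log2 fold change 3.29 ± 0.48 SE, edgeR adjusted p = 0.023). In the other nuclei Dnah3 was at 3.03 and 2.90 CPM. Of 16 tested genes of the motile cilia list, Cfap54 alone was called, and 15 had a positive log2 fold change with a median over the list of 0.27 beside -0.01 over all genes tested. The oxidative phosphorylation list was as one-sided the other way, with 1 of 16 tested genes positive and a median of -0.11. Dnah9 (0.37), Spag16 (0.28) and Cfap44 (0.29) did not overlap between genotypes but had edgeR adjusted p of 0.81, 0.80 and 0.84. With Cfap54, 4 of the 16 genes did not overlap, where the share over all genes tested was 4.27%. The summed level of 6 ependymal markers was 2275 to 2540 CPM in the 3xTg-AD and 1785 to 2144 CPM in the WT epithelium. Most of this sum was Spag16, already named here, so it is not a separate reading of the genotypes. Ccdc153, Tmem212 and Dnah12 were at 0 to 3.64 CPM on average. The part of ependymal transcripts in the cilia values was not tested.

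Rad51b, a gene of homologous recombination repair, was at 126, 140, 182 and 228 CPM in 3xTg-AD and at 74.9, 99.1, 80.7 and 78.3 CPM in WT (log2 fold change 1.13 ± 0.19 SE, edgeR adjusted p = 0.034). In the epithelium it stood at 126 CPM on average against 8.65 CPM in other nuclei. It lies on chromosome 12 (chr12:79297282-79814690). The antisense transcript Gm26693, on the strand opposite to Zfp799, was at 33.1 to 63.1 CPM in 3xTg-AD and at 6.91 to 20.1 CPM in WT (log2 fold change 1.78 ± 0.29 SE, edgeR adjusted p = 0.032). The 16 called genes lay on 12 chromosomes, and Arl6ip1 and Dnah3, which moved in opposite directions, were 1.79 Mb apart on chromosome 7.

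At 6 months alone, with 3 3xTg-AD against 2 WT libraries, 6 of 7704 genes were called (0.0779%), 5 lower (0.0649%) and 1 higher (0.013%) in 3xTg-AD. Without any one 3xTg-AD library the count was 3 (AC149090.1, Arl6ip1 and Gm49980 each time), without WT replicate 7 it was 13, and without WT replicate 11 it was 21. Dnah3, Gm49980, Arl6ip1, Zfp990 and Dach2 were among the 16 genes above. The sixth, AC149090.1, a protein-coding gene model on a sequence not placed on a chromosome, was at 311, 276 and 268 CPM in 3xTg-AD and at 968 and 1193 CPM in WT (log2 fold change -1.92 ± 0.17 SE, edgeR adjusted p = 0.00063). At 12 months it was at 728 CPM in the 3xTg-AD library and at 835 and 949 CPM in WT. It was lower in the other nuclei as well at 6 months, at 165 against 854 CPM (log2 fold change -2.31, edgeR adjusted p = 0.0011).

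At 12 months, 55 of 9454 genes were called (0.582%), 21 higher (0.222%) and 34 lower (0.36%), but 3xTg-AD was represented by replicate 6 alone, whose spread was taken to equal that of the 2 WT libraries. This comparison is of that library, and 62.5% of all genes tested did not overlap. DESeq2 called 2 genes, Tbc1d1 and Galnt7, and a fit over all 8 libraries called 4, of which Tbc1d1, Unc5c, Sdk1 and Ammecr1 were all among the 55. Ammecr1, an X-linked gene, was at 352 CPM in replicate 6 and at 58.5 and 43.0 CPM in WT. The transcription factor gene Mecom was at 928 CPM against 234 and 256 CPM, and the cell adhesion gene Sdk1 at 412 CPM against 72.6 and 115 CPM. The netrin receptor gene Unc5c was at 56.6 CPM against 240 and 396 CPM. Dpp10 was at 85.7 CPM against 680 and 112 CPM, and its log2 fold change went from -2.28 to 0.41 when nuclei marked as doublets were left out. Unc5c and Dpp10 were higher in other nuclei (888 and 1849 CPM) than in the epithelium (172 and 232 CPM on average). The 6 neuronal markers had negative log2 fold changes in this comparison, with a sum in replicate 6 of 1392 CPM against 3266 and 2282 CPM, a median log2 fold change of -1.01 and 1 of 6 called. The part of neuronal transcripts in the 12-month calls was not tested.

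Age and its interaction with genotype gave no calls. Between 12 and 6 months, with genotype as a covariate, 0 of 9315 genes were called (0%) by edgeR, and 456 had a p under 0.05 before adjustment. DESeq2 called none, with 237 under 0.05 before adjustment. For the difference of the genotype effect between ages, 0 of 10471 genes were called (0%) by edgeR or DESeq2, with 375 and 145 under 0.05 before adjustment. Here 524 would be expected. The prolactin receptor gene Prlr had a log2 difference of 0.75 between 12 and 6 months (edgeR adjusted p = 0.90), and Slco1c1 one of 0.84 (edgeR adjusted p = 0.96), and in both the libraries of the 2 ages overlapped.

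The genotype difference in the epithelium was set against that in all other nuclei of the same 8 libraries by an interaction term. It differed for 9 of 9315 genes (0.0966%), 5 with a more positive (0.0537%) and 4 with a more negative (0.0429%) difference in the epithelium. Dach2 (log2 difference -2.004, edgeR adjusted p = 0.020), Cadps2 (-2.50, 0.020), Galnt7 (-2.69, 0.033), Tbc1d1 (-3.66, 0.042) and Dnah3 (3.50, 0.045) were also called within the epithelium. The ciliary dynein gene Dnah6 was at 638 ± 70.9 CPM in 3xTg-AD and 491 ± 74.7 in WT epithelium (SD, n = 4 each) and at 4.52 and 11.1 CPM in other nuclei (log2 difference 1.68, edgeR adjusted p = 0.020). Its own genotype difference was called in the other nuclei (log2 fold change -1.33, edgeR adjusted p = 0.020) and not in the epithelium (0.32, edgeR adjusted p = 0.81). Armc4, which encodes a docking factor of ciliary dyneins, was at 182 ± 40.2 and 90.1 ± 46.2 CPM in the epithelium and at 2.67 and 4.37 CPM elsewhere (log2 difference 1.78, edgeR adjusted p = 0.042). Jakmip3 (1.56) and 9330185C12Rik (1.15) both had an edgeR adjusted p of 0.042. Dnah6, Armc4, Jakmip3 and 9330185C12Rik were not called within the epithelium alone. Without 6-month 3xTg-AD replicate 9 no gene was called, without 6-month 3xTg-AD replicate 5 or 12-month replicate 6 the count was 1, without 6-month WT replicate 11 it was 2, and without 12-month WT replicate 4 it was 14.

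Lists of genes for the functions of the epithelium held no call between genotypes, where 0.172% of all genes tested were called, a share that gives few calls in lists of this size. The called bicarbonate exchanger gene Slc4a8 was not on the ion and water transport list. None of 20 tested identity genes, 24 genes of ion and water transport, 18 of solute and drug transport, 14 of junctions and polarity, 16 secreted factors, 9 of thyroid hormone and retinoid handling, 12 receptors and 13 of amyloid handling was called. Their median log2 fold changes ran from -0.20 for thyroid hormone and retinoid handling to 0.03 for junctions and polarity, beside -0.01 over all genes. Of the 110 different genes in these 8 lists, 7 did not overlap between genotypes (6.36%, against 4.27% of all genes tested), 5 lower and 2 higher in 3xTg-AD. Lmx1a, a homeobox gene of this lineage, was lower in every 3xTg-AD than in every WT library with a log2 fold change of -0.48 ± 0.13 (SE, edgeR adjusted p = 0.35). The monoamine transporter gene Slc29a4 (-0.57 ± 0.17, edgeR adjusted p = 0.42) and Thrb (-0.60 ± 0.18, edgeR adjusted p = 0.45) also did not overlap, and Igfbp2 did not in the other direction (0.47 ± 0.18, edgeR adjusted p = 0.62). None of the 6 tested genes of the interferon list, 7 of inflammation and 16 of oxidative phosphorylation was called, at the same background of 0.172%.

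**Figure D5:**
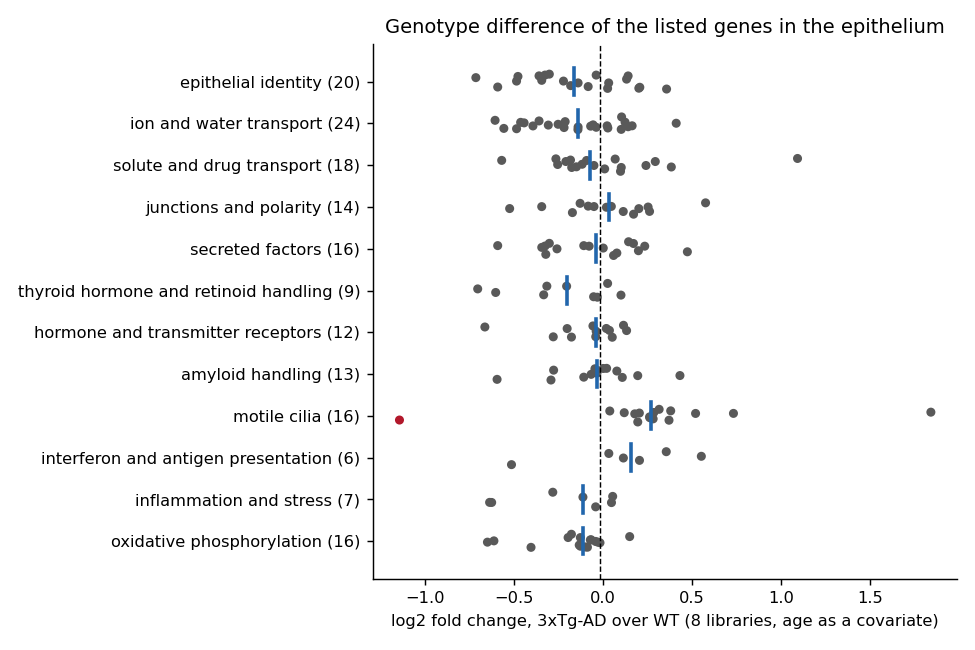
Log2 fold change of 3xTg-AD over WT in the epithelium (horizontal axis, 8 libraries, age as a covariate) for the tested genes of 12 lists, with the number tested in brackets. Blue bars are list medians, the dashed line is the median of all genes tested, and the red point, the only called gene, is Cfap54 in the motile cilia list at -1.14.

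Variation among members was measured gene by gene, as a description with no test. Each of 1041 members of the 8 libraries with enough UMIs was thinned to 2000 UMIs, and the variance within libraries over the mean was taken for 4109 genes that averaged at least 0.1 UMIs. Its median was 1.07, close to the value of 1 that counting alone gives. The 10 genes with the highest ratio were Kcnip4 (19.1), Lsamp (9.59), Dpp10 (8.43), Htr2c (7.88), Meg3 (6.83), Cntnap2 (6.46), Gpc5 (6.28), Nrg3 (6.26), Galntl6 (6.02) and Adarb2 (5.98). Htr2c was a gene of the rule. Kcnip4 had a UMI in 33.0% and Meg3 in 46.9% of the thinned nuclei. The source of these transcripts was not tested.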

How the data were processed

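Raw UMI counts per gene and nucleus were deposited by the authors as filtered matrices from Cell Ranger 6.1.1 on mm10, before their removal of free RNA and of low-quality nuclei, for 12 libraries of 1 mouse each. Nuclei with 500 to 10000 genes were kept, and members were those passing the marker rule. The members and gene lists were chosen with earlier results of these data known. Counts of members were summed per library, and libraries with at least 10 members (8 of 12) were compared in edgeR 4.0.16 by its quasi-likelihood test (TMM scaling, filterByExpr), with Benjamini-Hochberg adjustment over all genes. DESeq2 1.42.0 was an alternative. Shares were compared by exact two-sided permutation over libraries and relations by permutation with 100000 resamples. Doublets were scored with Scrublet in scanpy 1.11.5 and kept. Named genes were the listed genes, the 20 with the highest ratio to other nuclei at 100 CPM or more, up to 10 called genes per direction with the smallest adjusted p whose groups did not overlap, and the 10 most variable. On simulated counts for the genotype comparison over both ages (9315 genes), 37% of 2-fold and 91% of 4-fold changes were recovered; at 12 months (9454 genes) these were 0% and 25%. Gene positions are from GENCODE on GRCm38. Rules, filters, scaling, thinning, doublets and single libraries were varied. Some items, among them part of the line's genotype, are not reported here.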

Additional observations from a re-analysis of the deposited data

Results flagged for a closer look

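Among 36 groups of libraries tested for a value far from the others, 5 were found. The rule passes about 1 in 20 groups of continuous values by chance. That rate does not hold for groups with most libraries at 0, so 5 of 36 cannot be set against it. In the 3xTg-AD epithelium, 6-month replicate 9 held the only UMI of Zfp990 and of Gm42743 (0.651 CPM each, the other libraries at 0) and had the lowest Tmem117 (24.7 CPM). That library held 1536039 of the 2577416 UMIs of the 3xTg-AD epithelium tested. With the other libraries at 0, any single UMI is flagged. Cadps2 was highest in 6-month replicate 5 (18.4 CPM), and Arl6ip1 was lowest in 6-month replicate 1 (33.1 CPM).

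For 9 genes the genotype difference in the epithelium differed from that in other nuclei by the edgeR interaction test. The log2 differences were 3.50 for Dnah3, 1.78 for Armc4, 1.68 for Dnah6, 1.56 for Jakmip3, 1.15 for 9330185C12Rik, -2.004 for Dach2, -2.50 for Cadps2, -2.69 for Galnt7 and -3.66 for Tbc1d1.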

How the results depend on the processing

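Groups of genotype and age could not be paired, since the labels name no link between mice of different groups. Only the comparison of the epithelium with other nuclei was paired, with the library as a block. The share difference at 6 months became 0.0055 percentage points under the stricter rule (at least 20 UMIs of Ttr and 4 of Htr2c). Leaving out 1 library gave -0.551 to 0.376 at 6 months, -0.476 to -0.00036 at 12 months, -0.388 to 0.0562 over both ages, -0.515 to -0.152 for age and -0.603 to 0.324 for the interaction. The fibroblast relation became 0.023 under the stricter rule. With no filter on low counts, more genes were tested. Of these, 95 of 20051 were called at 6 months and 150 of 20857 over both ages. For age it was 85 of 20857, for the interaction 42 of 20857 and against other nuclei 153 of 29290. DESeq2 called 2 at 12 months, 30 over both ages (all 16 among them) and 35 against other nuclei. Thinning to the smallest library gave 3 of 3979 genes at 6 months and 7 of 4383 over both ages (5 of the 16, of which 10 were tested). At 12 months, 31 were called among genes higher in members and 4 in one fit of all libraries. The stricter rule gave 4 against other nuclei. Using all 12 libraries was an alternative chosen after seeing the data. It gave 9 of 4985 genes at 12 months and 26 of 6779 over both ages. Of the 16, 10 were tested there, all 10 had the same sign and 8 were kept. For age it gave 2 of 6779, for the interaction 5 of 7264 and against other nuclei 66 of 6779. Leaving out 1 library gave 3 to 21 at 6 months, 0 to 21 over both ages, 0 to 0 for age, 0 to 1 for the interaction and 0 to 14 against other nuclei; at 12 months, and for the interaction without 12-month 3xTg-AD replicate 6, it could not be fitted. Dpp10 at 12 months became 0.41 without doublets. The cause of these changes was not tested.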
